A study of Mus musculus with 4 samples.

Results

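The genes described here are the 10 members of the VEGF system, the vascular endothelial growth factor ligands Vegfa, Vegfb, Vegfc, Vegfd and Pgf, the receptor tyrosine kinases Kdr, Flt1 and Flt4, and the neuropilin co-receptors Nrp1 and Nrp2. They were taken by gene name from a deposited table of 54446 genes, and all 10 were found there once each. Their transcripts were measured by RNA sequencing in vessel-lining endothelial cells, which had been sorted out of C57BL/6 mouse retinas at postnatal day 16. There were 2 libraries labelled Zeb1-CKO and 2 control libraries, each prepared from 100 sorted cells. Zeb1 encodes a zinc-finger transcriptional repressor; the titles name its conditional knockout and the genotype field a knockdown, while the promoter driving deletion, the alleles the controls carry and the number of mice behind each library are not stated in the labels. Since no label says that the libraries came from separate mice, the spread behind each p-value may be technical.

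VEGF signalling is the main growth and permeability signal of endothelial cells. VEGF-A, the product of Vegfa, binds VEGFR2 (encoded by Kdr), which carries most of the signal, and VEGFR1 (encoded by Flt1), which binds it tightly, signals weakly and so limits the ligand that reaches VEGFR2. Placental growth factor (Pgf) and VEGF-B bind VEGFR1 and not VEGFR2, VEGF-C and VEGF-D bind VEGFR3 (encoded by Flt4), and neuropilins hold ligands at the surface beside the receptors. In the growing retina astrocytes and Müller glia are known as the main sources of VEGF-A, and tip cells at the vessel front respond to it.

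RefSeq start-site windows on GRCm38.p6, each reaching 250 bases before and 50 bases after a transcript start, matched all 10 members with 12 windows. They were searched on both strands for the E-box letters that ZEB1 is known to bind, which are CAGGTG and a variant form, CAGGTA. The core letters of hypoxia-response elements were searched too, as ACGTG and the variant form GCGTG. The upstream one of the 2 windows of Pgf, the member that rose, and the windows of Flt4, another member with CAGGTG in its window, and of the upstream start of Vegfa, the best-known hypoxia-induced ligand, are shown 5′ to 3′ on the gene's strand, with matches in capitals. In capitals CACCTG is the E-box read on the opposite strand, and likewise CACGC is the hypoxia-response core.
Pgf, chr12:85177264-85177563, minus strand: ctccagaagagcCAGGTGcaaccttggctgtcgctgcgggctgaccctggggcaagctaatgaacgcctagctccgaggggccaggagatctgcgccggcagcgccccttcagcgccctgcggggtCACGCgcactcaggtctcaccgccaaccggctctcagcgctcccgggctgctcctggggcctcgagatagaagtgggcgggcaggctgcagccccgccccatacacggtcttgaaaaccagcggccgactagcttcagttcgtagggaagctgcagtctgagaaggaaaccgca
Flt4, chr11:49609429-49609728, plus strand: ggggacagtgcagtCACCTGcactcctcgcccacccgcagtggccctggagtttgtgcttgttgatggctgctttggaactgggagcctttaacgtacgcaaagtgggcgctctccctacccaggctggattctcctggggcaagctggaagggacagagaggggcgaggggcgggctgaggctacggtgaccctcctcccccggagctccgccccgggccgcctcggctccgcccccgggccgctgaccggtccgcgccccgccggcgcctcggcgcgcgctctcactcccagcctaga
Vegfa, chr17:46032328-46032627, minus strand: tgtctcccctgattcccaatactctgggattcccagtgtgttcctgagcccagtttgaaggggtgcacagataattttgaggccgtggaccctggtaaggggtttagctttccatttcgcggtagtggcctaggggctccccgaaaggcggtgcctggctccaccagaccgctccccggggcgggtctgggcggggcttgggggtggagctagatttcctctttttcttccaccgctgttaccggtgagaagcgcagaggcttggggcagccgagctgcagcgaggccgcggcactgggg

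CAGGTG lay 238 bases before the upstream RefSeq start of Pgf and, on the opposite strand, 236 bases before that of Flt4. It also occurred in a window inside Vegfa, at a second RefSeq start 7206 bases downstream of the deposited start site. With that window counted, 3 of 10 members, and 3 of 12 windows, had either form of the E-box. The second window of Pgf, at a RefSeq start 1808 bases downstream of the start in the deposited table, held neither E-box form and no hypoxia-response core. Of all 32851 windows in the RefSeq table, 29.5% held either form, and 20.2% held CAGGTG. Either form of the hypoxia-response core occurred in 7 of the 12 windows, against 43.8% of all windows; for Vegfa it was in the second window and not in the printed one. The 2 motifs did not overlap in these windows. The start site given for Pgf in the deposited table, 85177790, lies 477 bases upstream of the RefSeq start of the printed window, so the printed Pgf window lies inside the gene as the table places it. For Flt4 the deposited start site, 49609263, lies 416 bases upstream of the RefSeq start, so the printed Flt4 window lies inside its gene too. A match is a description of letters only, and the deposited data hold no measurement of binding.

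The deposited values are FPKM, fragment numbers divided by transcript length and by library size, which allow levels to be compared between genes. Differences were tested with limma on log2(FPKM + 1) in the 13651 genes whose 4 libraries averaged 1 FPKM or more, and a gene was called at a Benjamini-Hochberg adjusted p under 0.05 over all of them. Estimated from the steps between low values, depths were 21.95 and 16.77 M fragments in the Zeb1-CKO libraries and 20.57 and 11.18 M in the controls. A step of that size was taken as 1 fragment; depths 2 and 4 times that size left even more values on whole steps, so the absolute depth is uncertain. Each depth is the smallest one reaching 60% of the best share of whole steps, a fraction set after a first estimate had settled on multiples. Control 2 came out as the shallowest with 4 of the 6 fractions tried; with the other 2, different libraries settled on different multiples. Zeb1 itself was found at 8.66 and 7.07 FPKM in Zeb1-CKO cells, against 10.7 and 11.1 FPKM in controls; the groups did not overlap, but the log2 difference of -0.43 (SE 0.15) was not called (limma adjusted p = 0.235), and a value per gene cannot show which exons were lost. The sorted cells held endothelial transcripts in all 4 libraries, with Cldn5, the main endothelial claudin, between 2692 and 3500 FPKM.

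In Zeb1-CKO cells the ligand gene Pgf rose about 3-fold, and the 3 receptor genes stood at levels that overlapped those in controls. Of the 9 members with enough signal to be fitted, Pgf was called higher, 0 were called lower by limma, and Pgf was also the 1 member with an unadjusted p under 0.05, which 17.9% of all fitted genes reached. Over all 13651 fitted genes, 2.23% were called higher and 0.901% lower. The groups did not overlap for 3 of the 9 fitted members, Pgf and Nrp1 being higher and Nrp2 lower, against 49.4% of all fitted genes (27.1% higher and 22.3% lower). The log2 fold change was positive for 7 members and negative for 2, with a median of 0.09, against a median of 0.02 over all fitted genes.

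**Figure D1:**
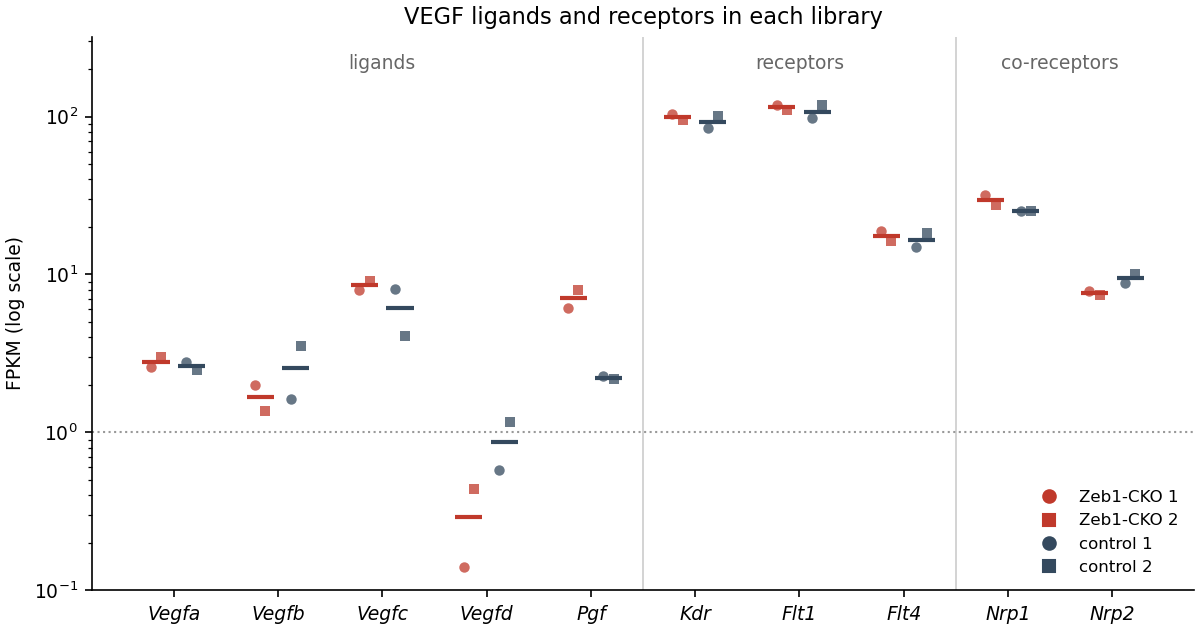
FPKM on a log axis for each of the 10 members in each library, with Zeb1-CKO in red left of control in dark blue; points are libraries, bars are means of 2 libraries, and the dotted line marks 1 FPKM. Receptors and co-receptors lie above the ligands apart from overlap between Nrp2, Vegfc and Pgf, and Pgf is the ligand above 1 FPKM whose Zeb1-CKO points, at 6.11 and 7.97, stand clear of its control points, at 2.27 and 2.16.

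Pgf, the gene of placental growth factor, spans chromosome 12 from 85166635 to 85177790 on the minus strand of mm10. Zeb1-CKO libraries gave 6.11 and 7.97 FPKM, against 2.27 and 2.16 FPKM in the controls. Both Zeb1-CKO libraries stood above both controls, and the controls lay close together. The means were 7.04 ± 1.31 FPKM in Zeb1-CKO cells and 2.22 ± 0.0750 FPKM in control cells (SD, n = 2 each), a 3.18-fold difference on FPKM. After log2(FPKM + 1), where low genes change less than on FPKM, the difference was 1.31 (SE 0.18, 95% interval 0.87 to 1.75), with a limma adjusted p of 0.0233. The call ended without any 1 of the 4 libraries, at log2 differences between 1.14 and 1.48 and limma adjusted p between 0.0558 and 0.139. Each such fit leaves 1 library in a genotype, which is then assumed to vary like the other genotype, here and wherever a library is left out. It also ended with no filter on low values (0.143 as limma's adjusted p).

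By its share of the summed ligand FPKM, Pgf made up 32.6% and 36.4% of the ligand transcripts in the Zeb1-CKO libraries and 14.7% and 16.1% in the controls. The summed level of the 5 ligands was 18.8 and 21.9 FPKM in the Zeb1-CKO libraries and 15.4 and 13.4 FPKM in the controls. The genotype means differed by more FPKM for Pgf than for any other of the 5 ligands. Within a library, which takes out the library total, the ratio of Pgf to Vegfa was 2.37 and 2.67 in the Zeb1-CKO libraries and 0.812 and 0.867 in the controls. Pgf thus stood above Vegfa in both Zeb1-CKO libraries and below it in both controls. The exact permutation test over the 6 assignments of libraries gave a two-sided p of 0.333, the smallest this design allows.

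**Figure D2:**
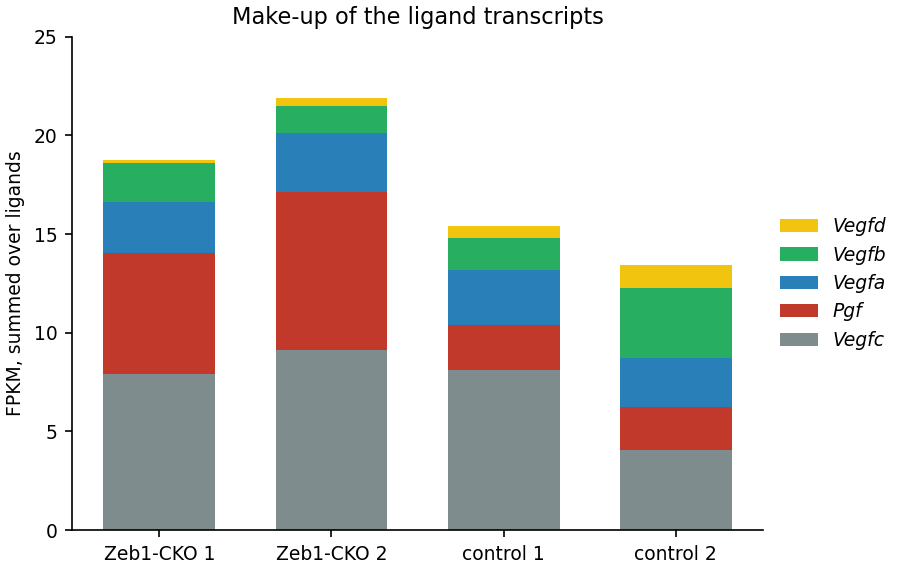
Stacked bars of the FPKM of the 5 ligand genes, on a linear axis from 0, for the 2 Zeb1-CKO and the 2 control libraries, with no error bars since each bar is 1 library. The red Pgf segment is 6.11 and 7.97 FPKM in the Zeb1-CKO bars and 2.27 and 2.16 FPKM in the control bars, and the grey Vegfc segment is smallest in control 2.

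Vegfa (chromosome 17, 46016993 to 46032369, minus strand) encodes the main angiogenic ligand and was low in these sorted cells. It was measured at 2.58 and 2.99 FPKM in Zeb1-CKO cells, against 2.80 and 2.50 FPKM in controls, and the groups overlapped. The log2 difference of 0.05 (SE 0.17) was not called, with a 95% interval of -0.36 to 0.47 and a limma adjusted p of 0.900. Of the fitted genes, 28.5% had a lower mean than Vegfa.

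Vegfc (chromosome 8, 54077606 to 54187096, plus strand), which encodes the ligand of VEGFR3 best known from lymphatic growth, had the highest mean of the ligands. Its values were 7.94 and 9.14 FPKM in Zeb1-CKO cells and 8.13 and 4.09 FPKM in controls. Control 2 was the low library, and control 1 stood between the Zeb1-CKO libraries. The log2 difference of 0.48 (SE 0.29) was not called (limma adjusted p = 0.454). It was 0.90 without control 1 and 0.06 without control 2, so its size rests on control 2.

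Vegfb (chromosome 19, 6982473 to 6987651, minus strand) encodes a VEGFR1 ligand linked mainly to heart and muscle. It stood at 1.99 and 1.37 FPKM in Zeb1-CKO cells and at 1.62 and 3.52 FPKM in controls, and here control 2 was the high library. The log2 difference of -0.37 (SE 0.30, 95% interval -1.13 to 0.38) was not called, and without control 2 it was 0.02. Control 2, the library that stood apart for both Vegfc and Vegfb, was also the shallowest at the 60% fraction, though not at each fraction tried, and the part of depth in these values was not tested. Within a library, the ratio of Vegfb to Vegfa was 0.770 and 0.458 in Zeb1-CKO cells and 0.580 and 1.41 in controls (exact permutation p = 0.667, two-sided).

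Vegfd (chromosome X, 164373378 to 164402650, plus strand), the other ligand gene for VEGFR3, had a mean under 1 FPKM and was not fitted. It was measured at 0.141 and 0.439 FPKM in Zeb1-CKO cells, against 0.578 and 1.17 FPKM in controls. Both Zeb1-CKO libraries were below both controls, at levels that correspond to roughly 6.32 and 15.1 fragments in Zeb1-CKO cells and 24.4 and 26.8 fragments in controls, by the estimated depths, which may be too small by whole multiples, and the longest transcript of 2049 bases. With genes down to a mean of 0.5 FPKM included, its log2 difference was -0.53 (SE 0.26) and was not called, with a limma adjusted p of 0.387.

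The receptor genes were among the more abundant transcripts of these cells. Flt1 (chromosome 5, 147561604 to 147726011, minus strand), encoding VEGFR1, stood at 118.5 and 109.9 FPKM in Zeb1-CKO cells and at 97.5 and 117.5 FPKM in controls. Kdr (chromosome 5, 75932827 to 75978458, minus strand), encoding VEGFR2, stood at 103.5 and 95.4 FPKM in Zeb1-CKO cells and at 84.6 and 101.3 FPKM in controls. In both genes control 1 was the lowest library and Zeb1-CKO 1 the highest, and control 2 lay between the Zeb1-CKO libraries. Flt4 (chromosome 11, 49609263 to 49652739, plus strand), encoding VEGFR3, stood at 18.8 and 16.2 FPKM in Zeb1-CKO cells and at 15.0 and 18.2 FPKM in controls.

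None of the 3 receptors was called by limma, and 0 had an unadjusted p under 0.05. The log2 differences were 0.10 (SE 0.15, 95% interval -0.26 to 0.47) for Kdr, 0.09 (SE 0.15, -0.28 to 0.46) for Flt1 and 0.08 (SE 0.16, -0.32 to 0.48) for Flt4. These intervals leave room for changes of that size in either direction, so equal levels were not shown. Without control 1 all 3 differences turned slightly negative, at -0.03 for Kdr, -0.04 for Flt1 and -0.06 for Flt4.

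The proportions between the receptors varied much less between libraries than their levels did. The ratio of Flt1 to Kdr was 1.15 in each Zeb1-CKO library, against 1.15 and 1.16 in the controls. Flt1 made up 49.4% ± 0.253 of the summed receptor FPKM in Zeb1-CKO cells and 49.5% ± 0.0683 in controls (SD, n = 2 each). Flt4 made up 7.56% ± 0.327 in Zeb1-CKO cells and 7.64% ± 0.0660 in controls. The summed receptor level itself was 240.8 and 221.6 FPKM in the Zeb1-CKO libraries and 197.1 and 237.0 FPKM in the controls. Flt1 was above Kdr in all 4 libraries. FPKM per gene sums all transcripts, so membrane-bound and soluble forms of VEGFR1, which come from the same gene, cannot be told apart.

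**Figure D3:**
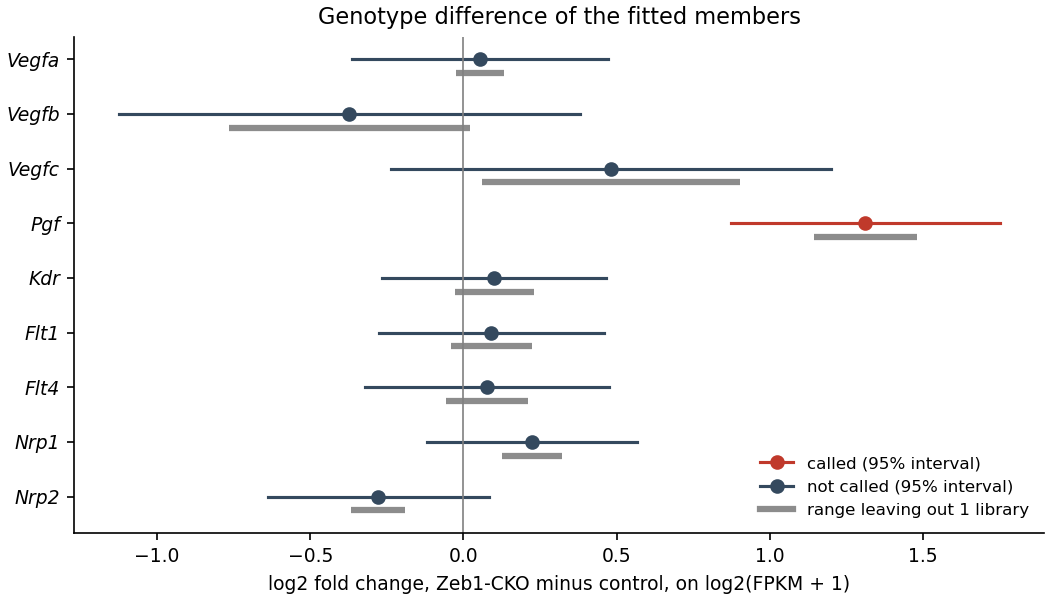
Log2 fold change, Zeb1-CKO minus control, on log2(FPKM + 1) for the 9 fitted members, with limma's 95% intervals; grey bars give the range of the estimate when each library is left out in turn. Only the Pgf interval, 0.87 to 1.75, lies clear of 0 among these 9, and the widest grey bars are those of Vegfc and Vegfb.

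The log2 differences of the neuropilins had opposite signs, and neither gene was called. Nrp1 (chromosome 8, 128358604 to 128503363, plus strand), the co-receptor for VEGF-A and for class 3 semaphorins, stood at 31.7 and 27.5 FPKM in Zeb1-CKO cells and at 25.3 and 25.04 FPKM in controls. Nrp2 (chromosome 1, 62703285 to 62818695, plus strand), a co-receptor for VEGF-C known from veins and lymphatics, stood at 7.90 and 7.37 FPKM in Zeb1-CKO cells and at 8.84 and 10.1 FPKM in controls. Neither pair of groups overlapped. The log2 differences were 0.22 (SE 0.14; limma adjusted p = 0.468) for Nrp1 and -0.28 (SE 0.15; limma adjusted p = 0.391) for Nrp2. The ratio of Nrp1 to Nrp2 within a library was 4.02 and 3.74 in Zeb1-CKO cells and 2.86 and 2.47 in controls. This is a log2 difference of 0.54, which the exact permutation test cannot take below its smallest two-sided p of 0.333.

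On the FPKM scale and by the mean of the 4 libraries, the order of levels was Flt1, Kdr, Nrp1, Flt4, Nrp2, Vegfc, Pgf, Vegfa, Vegfb and Vegfd. The library ranges of Flt1 and Kdr overlapped, as did those of Nrp2 and Vegfc, Vegfc and Pgf, Pgf and Vegfa, and Vegfa and Vegfb. The ranges of Kdr and Nrp1, Nrp1 and Flt4, Flt4 and Nrp2, and Vegfb and Vegfd did not overlap. By mean level, 97.5% of fitted genes lay below Flt1, 97.0% below Kdr, 87.3% below Nrp1 and 79.8% below Flt4. The ligands ranked lower, with 58.5% of fitted genes below Vegfc and 21.4% below Vegfb. This order pools the genotypes: by genotype mean, Pgf stood above Vegfa and Vegfb in Zeb1-CKO cells and below both in controls, and Vegfc stood above Nrp2 in Zeb1-CKO cells and below it in controls. The place of Pgf below Vegfb rests on control 2, since in control 1 Pgf, at 2.27 FPKM, stood above Vegfb, at 1.62 FPKM.

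The pattern of Pgf over the 4 libraries was compared with those of fitted genes, by Euclidean distance between mean-centred log2 values. Members, predicted and clone-named genes, pseudogenes and mitochondrial genes were left out. Of the genes compared, the 3 most like Pgf were P3h2 (distance 0.0800), Bag2 (0.0972) and Serpina3g (0.0982). P3h2, which encodes a collagen prolyl hydroxylase, stood at 12.4 and 16.2 FPKM in Zeb1-CKO cells and at 5.53 and 4.86 FPKM in controls. Bag2, which encodes a co-chaperone, stood at 18.0 and 21.4 FPKM in Zeb1-CKO cells and at 7.88 and 7.06 FPKM in controls. Over 4 libraries such likeness is weak, and 186 of the genes compared lay within a distance of 0.5.

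Genes around the receptors were read from 5 lists, described by counts beside the 3.13% of all fitted genes called in either direction and the 17.9% at an unadjusted p under 0.05. The lists were chosen with earlier results of these data known, so their counts are descriptions and not independent of the calls. Of 45 genes of receptor signalling and trafficking, 44 were fitted, of which 1 fell, 0 rose and 43 were not called, with 5 at an unadjusted p under 0.05 and a median log2 difference of -0.06. The gene that fell was Spry2, which encodes Sprouty2, a feedback inhibitor of receptor tyrosine kinase signalling to the MAP kinases. Spry2 stood at 43.4 and 47.7 FPKM in Zeb1-CKO cells, against 88.1 and 83.9 FPKM in controls, a log2 difference of -0.90 (SE 0.13; limma adjusted p = 0.0287). The call ended without any 1 library, at log2 differences of -0.97 to -0.84.

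Core enzymes of the pathway were not called. Plcg1, the phospholipase activated by VEGFR2, was at 19.5 and 21.3 FPKM in Zeb1-CKO cells and 18.4 and 19.2 FPKM in controls, and Akt1 was at 20.2 and 19.6 FPKM in Zeb1-CKO cells and 19.6 and 21.1 FPKM in controls. Ptprb, the receptor phosphatase VE-PTP that acts on Tie2 and VEGFR2, stood at 65.6 and 62.9 FPKM in Zeb1-CKO cells and at 77.2 and 86.5 FPKM in controls, and was not called (limma adjusted p = 0.262). Itgb3, the integrin beta3 subunit gene, had the largest positive log2 difference of the list, 1.11 (SE 0.29), and was not called (limma adjusted p = 0.128). These 4 genes were picked after their values were seen.

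**Figure D4:**
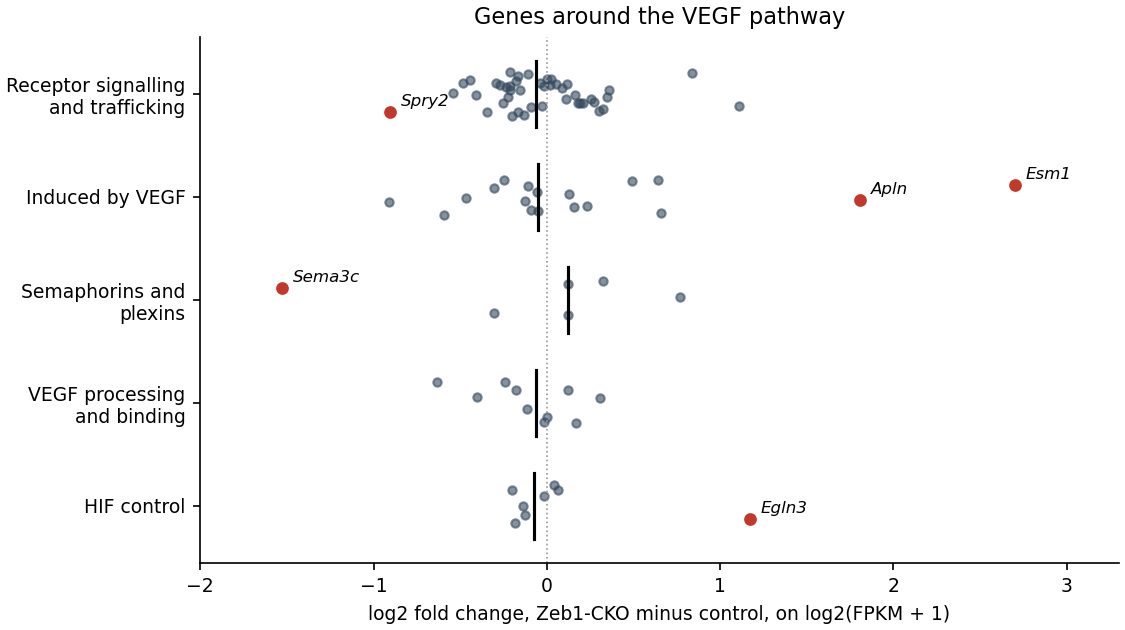
Log2 fold change, Zeb1-CKO minus control, on log2(FPKM + 1) for each fitted gene of the 5 lists; each point is a gene, red points are called genes with their names, black bars are list medians, and vertical jitter has no meaning. List medians lie between -0.07 and 0.12, and the called genes are Spry2, Esm1, Apln, Sema3c and Egln3.

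Of 18 genes known to be induced by VEGF in endothelial cells, all were fitted, 2 rose, 0 fell and 16 were not called, with 6 at an unadjusted p under 0.05. The median log2 difference was -0.05, with 8 positive and 10 negative values. The genes that rose were Esm1, encoding the proteoglycan endocan, at 91.0 and 66.2 FPKM in Zeb1-CKO cells against 9.62 and 12.8 FPKM in controls, and Apln, encoding the peptide apelin, at 188.5 and 170.6 FPKM in Zeb1-CKO cells against 48.0 and 53.2 FPKM in controls. Other members are known as early responders to VEGF. Egr3, a transcription factor gene, stood at 9.71 and 4.13 FPKM in Zeb1-CKO cells and at 11.9 and 14.0 FPKM in controls, and Nr4a3, an orphan nuclear receptor gene, stood at 4.33 and 3.56 FPKM in Zeb1-CKO cells and at 6.56 and 6.32 FPKM in controls. Nr4a1, of the same receptor family and the most abundant of the list, stood at 614 and 659 FPKM in Zeb1-CKO cells and at 626 and 701 FPKM in controls. None of these 3 was called. Rcan1, the calcineurin inhibitor gene induced by VEGF through NFAT, stood at 12.4 and 14.5 FPKM in Zeb1-CKO cells and at 13.8 and 13.9 FPKM in controls. Its groups overlapped, and it was not called either. Of the other members at an unadjusted p under 0.05, Plat, the tissue plasminogen activator gene, stood at 221.7 and 235.2 FPKM in Zeb1-CKO cells and at 141.8 and 150.7 FPKM in controls (limma adjusted p = 0.0652). Angpt2, encoding the Tie2 ligand angiopoietin-2, stood at 45.8 and 35.8 FPKM in Zeb1-CKO cells and at 30.2 and 26.8 FPKM in controls (limma adjusted p = 0.214).

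Among 12 class 3 semaphorins and their plexin receptors, which share the neuropilins with VEGF, 6 were fitted, 1 fell, 0 rose and 5 were not called, with 2 at an unadjusted p under 0.05. Sema3c, encoding a secreted semaphorin that binds neuropilins, fell to 0.270 and 0.456 FPKM in Zeb1-CKO cells, against 2.90 and 2.94 FPKM in controls. The log2 difference was -1.53 (SE 0.20, limma adjusted p = 0.0220). Both Zeb1-CKO values lay under the filter level of 1 FPKM. Sema3c, with a mean of 1.64 FPKM over the 4 libraries, entered the fit only through its controls. Its call ended without any 1 library, at log2 differences of -1.63 to -1.43. Sema3f, the other gene at an unadjusted p under 0.05, went the other way and was not called (limma adjusted p = 0.0918). It stood at 5.63 and 5.67 FPKM in Zeb1-CKO cells, against 3.38 and 2.48 FPKM in controls. Plxnd1, the endothelial plexin gene, was the most abundant member, at 52.5 and 49.1 FPKM in Zeb1-CKO cells and at 38.2 and 42.8 FPKM in controls, and was not called (limma adjusted p = 0.293).

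Of 13 genes of VEGF processing, binding and sequestration, 10 were fitted and 0 were called by limma, with 2 at an unadjusted p under 0.05. Ctgf, whose product binds VEGF-A, was the most abundant, at 92.4 and 77.2 FPKM in Zeb1-CKO cells and at 115 and 109 FPKM in controls, followed by Mmp14, a membrane-bound matrix protease gene, at 38.0 and 46.2 FPKM in Zeb1-CKO cells and 34.8 and 32.7 FPKM in controls. Ccbe1 and Adamts3, whose products activate VEGF-C, stayed under 1 FPKM in all 4 libraries.

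Of 9 genes of hypoxia-inducible factor control, 8 were fitted, 1 rose, 0 fell and 7 were not called, with 1 at an unadjusted p under 0.05. Egln3, an oxygen-sensing prolyl hydroxylase gene that is itself induced by hypoxia, stood at 4.64 and 4.33 FPKM in Zeb1-CKO cells, against 1.65 and 1.24 FPKM in controls, a log2 difference of 1.17 (SE 0.18; limma adjusted p = 0.0320). Its call ended without any 1 library, at log2 differences of 1.05 to 1.29. The factor genes themselves, Hif1a and Epas1, stood slightly lower in both Zeb1-CKO libraries, with Epas1 at 236 and 239 FPKM, against 275 and 271 FPKM in controls, and neither was called.

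The sorts also held transcripts of other cells, and of these marker lists 1 gene, Tagln, was called. Counts at an unadjusted p under 0.05 are to be read beside the 17.9% of all fitted genes. Of 11 fitted pericyte and smooth-muscle markers all 11 had a negative log2 difference, 7 were at an unadjusted p under 0.05 and Tagln was called, with summed levels of 1672 and 1824 FPKM in Zeb1-CKO cells and 2536 and 2051 FPKM in controls. Of 10 fitted Müller glia and astrocyte markers, 8 had a positive difference and 0 were called by limma (4 at an unadjusted p under 0.05). The smallest p of this list belonged to a marker with a negative log2 difference, -0.59 (SE 0.13). The sums were 456 and 519 FPKM in Zeb1-CKO cells and 410 and 436 FPKM in controls. Aqp4 was at 0 in both controls and Kcnj10 in control 1. Of 9 fitted microglia and myeloid markers 8 had a negative difference and 0 were called (6 at an unadjusted p under 0.05), with sums of 113 and 97.9 FPKM in Zeb1-CKO cells and 76.3 and 150.5 FPKM in controls; Aif1 was at 0 in Zeb1-CKO 1. Of 12 fitted retinal neuron markers all 12 had a positive difference and 0 were called (2 at an unadjusted p under 0.05), with sums of 72.5 and 102 FPKM in Zeb1-CKO cells and 108 and 39.0 FPKM in controls; Arr3 was at 0 in control 2. Lymphatic markers summed to 31.7 and 37.5 FPKM in Zeb1-CKO cells and 26.7 and 26.3 FPKM in controls, mostly from Pdpn, with 0 of 3 fitted called (2 at an unadjusted p under 0.05) and Lyve1 under 1 FPKM in all 4 libraries. Red-cell and platelet markers summed to 687 and 1208 FPKM in Zeb1-CKO cells and 2315 and 2767 FPKM in controls, and 0 of 6 were called (5 at an unadjusted p under 0.05). The globin genes carry that sum, and the 4 red-cell genes had negative differences. The platelet genes had positive ones, with Pf4 at 11.5 and 6.74 FPKM in Zeb1-CKO cells and 3.03 and 1.84 FPKM in controls. The groups did not overlap for Pf4, but they did for the other platelet gene. The 10 endothelial markers summed to 4271 and 4680 FPKM in Zeb1-CKO cells and 3792 and 4524 FPKM in controls, with 0 called and 2 at an unadjusted p under 0.05. Fewer cells of a type and less RNA per cell cannot be told apart in such sorted pools, and the part these transcripts play in the values of Pgf and the other members was not tested.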

How the data were processed

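RNA from 100 sorted cells per library was amplified with the SMART-Seq v4 kit, and libraries were sequenced as paired 150-base reads, per the labels' protocols. Reads of both strands are counted together. Trimmomatic 0.36, HISAT2 2.1.0 and StringTie 1.3.3 were used with build mm10, per the submitters' processing notes, without stated settings. The authors deposited FPKM per gene; that unit is inferred from StringTie and from the values, since the header gives none. FPKM depend on the library total, and no count test was run.

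All 4 columns matched a sample by name. The trend version of limma 3.58.1 (under R 4.3.3) was fitted on log2(FPKM + 1), with genotype alone in the model, to genes averaging 1 FPKM or more, after it was checked on simulated data, with Benjamini-Hochberg adjusted p over all fitted genes. The members and gene lists were chosen with earlier results of these data known. Named genes were all members, called list genes or otherwise the 2 most abundant, and the 3 genes most like a called member; other list genes were picked after their values were seen. Prkca, Cdh5 and Ptprb stand in both a pathway list and a marker list. Sums of markers are given for each list, with single values for some; 1 marker gene is not reported here by itself. Spans are from GENCODE M21, whose versioned identifiers matched for 53229 genes. By BLAST 2.17.0, no member transcript shared 200 bases at 95% identity with another gene, and the only shared exon bases were 80 between Nrp1 and Mir1903. Depths were estimated from genes with 1 transcript over 600 bases, where 17.3% to 21.7% of low values lay within 0.02 of a whole step. The share by chance is 4% at a depth fixed beforehand. These depths were picked for a high share, so 4% is too low a yardstick, by an amount that was not tested. The peak fraction of 60% was chosen after seeing the data. Amplified reads without molecular identifiers are not independent molecules. Alternatives were other pseudocounts, filters, scalings and variance models, the replicate block and each library left out. Figures were drawn with matplotlib 3.10.9 (Python 3.11.15).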

Additional observations from a re-analysis of the deposited data

How the results depend on the processing

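With 2 libraries per genotype the counts of called genes were fragile, while the log2 difference of Pgf kept its sign. The call of Pgf was kept under other pseudocounts, scalings and variance models and with a minimum mean of 0.5 FPKM, at log2 differences of 1.27 to 1.61. It ended with no filter (adjusted p = 0.143), where 38986 genes were fitted, and Pgf was not fitted with a minimum mean of 5 FPKM. Over all alternatives its limma adjusted p ranged from 0.0195 to 0.143. The counts of called members, signalling genes, semaphorins and plexins, and hypoxia genes were 1 each, and 0 each with no filter. With a minimum mean of 5 FPKM they were 0 for members, semaphorins and plexins, and hypoxia genes. Like Pgf, Sema3c and Egln3, at means of 1.64 and 2.96 FPKM, were not fitted under that filter, so these calls were not tested again there. Over all genes, 70 were higher and 15 lower with no filter, against 304 and 123, and 169 were higher with a minimum mean of 5 FPKM. Esm1 and Apln were called under each of the 16 alternatives.

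Leaving out 1 library, with the lone library assumed to vary like the other genotype, gave 48 to 238 genes higher and 15 to 64 lower, 0 members higher, and 0 called for Spry2, Sema3c and Egln3; the receptor signalling list had 0 to 1 higher, which was Rac1, low in control 2, without control 1. Log2 differences ranged from -0.025 to 0.13 for Vegfa, -0.76 to 0.0202 for Vegfb, -0.0274 to 0.23 for Kdr, -0.0415 to 0.225 for Flt1 and -0.0566 to 0.21 for Flt4, so their signs are not fixed. The log2 difference of the Vegfb to Vegfa ratio ranged from -1.25 to 0.0326, and that of Flt1 to Kdr was 0.0242 under quantile normalization, against -0.0096; the cause was not tested.

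No label says that the replicate numbers pair the libraries. Deviations of same-numbered libraries from their genotype means correlated at -0.118 over 13651 genes. With 2 libraries per genotype this sets 1 contrast against another, so it cannot decide whether the libraries were paired. With the replicate block, 155 genes were higher and 38 lower, and 0 members, 0 signalling genes, 0 semaphorins and plexins and 0 hypoxia genes were called, with Pgf at an adjusted p of 0.0584. A crossed pairing, added after seeing the data, gave 306 genes higher and 149 lower, and 1 receptor signalling gene higher, Itgb3. Depth limits Vegfd most, at an estimated 6.32 fragments in its lowest library, if the smallest candidate depth is right.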
